A study of Mus musculus with 40 samples.

Results

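The DNA replication machinery was followed in mouse splenic B cells as 42 named genes that build, start, run and close the replication fork. The genes were chosen by symbol and role, with no expression value in the rule but with earlier results of these data known. Each was read from 1 microarray probe, the one with the highest mean over the 40 columns of the deposited value table. All 42 had a probe among 19057 genes with one, and 40 were among the 9453 genes detected on at least 5 of the 40 arrays and therefore tested. The 2 members left out were Pola1, the catalytic subunit of DNA polymerase alpha, detected on 1 array, and Pole2, an accessory subunit of polymerase epsilon, detected on 0.

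Cells came from 2 genotypes on the C57BL/6 strain, Bank1-/- mice, which lack the B cell scaffold protein BANK1 and had been backcrossed for 9 generations, and wild type (WT) mice. They were cultured with CpG, an oligonucleotide sensed by Toll-like receptor 9, for 0, 6, 24 or 48 h. Each of the 8 groups held 5 biological replicates, and each replicate gave 1 library on 1 Illumina array. The labels describe the controls both as Bank1+/+ littermates and as purchased C57BL/6J mice, and give neither ages nor a link between mice and libraries. The cells were sorted by negative selection to a purity typically above 95% B220+CD3-. No culture without CpG beyond 0 h was analysed, so time in culture and CpG cannot be told apart.

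Before S phase the origin recognition complex (ORC), CDC6 and CDT1 load the ring of MCM proteins onto DNA, and geminin later blocks re-loading. Kinases, MCM10, CDC45 and the GINS complex then turn the ring into a moving helicase, polymerases copy the strands behind it on the sliding clamp PCNA, and nuclease, ligase and chromatin assembly factors finish the new DNA. Many of these genes are classic targets of E2F transcription factors, and naive splenic B cells, which are mostly quiescent, enter the cell cycle when CpG engages that receptor.

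Promoters are shown because the members moved together and because the factor family named above has a known short binding motif. Promoter windows, 250 bases before to 50 after the transcription start, were taken from RefSeq on build GRCm38.p6 and matched 34 of the 42 members. The E2F-type motif was searched on both strands as TTTCGCGC, TTTGGCGC, TTTCCCGC or GGCGGGAA, which can overlap one another. At least 1 match lay in a promoter of 19 of the 34 matched members (55.9%), against 623 of 7743 tested genes with a promoter (8.05%) and 1081 of all 27025 genes in the table (4%). The NF-Y box CCAAT was present for 21 members (61.8%), against 43.9% of tested genes and 41.1% of all genes. The motif TTTGAA was present for 7 members (20.6%), against 14.4% of tested genes and 20.2% of all genes in the table. These are letter matches and not measured binding.

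The windows below run from 160 bases before to 15 after the start, 5′ to 3′ on the gene's strand, with E2F-type matches in capitals. Cdc6, Mcm5, Pclaf and Uhrf1 are shown because each had the largest change of its role and a match in this window, and Mcm6, chosen after its 3 matches were seen, because it holds the most. Cdc6 lies at chr11:98907991-98908165 on the plus strand, Mcm5 at chr8:75109349-75109523 on the plus strand with 2 overlapping matches, and Pclaf at chr9:65890163-65890337 on the plus strand. Uhrf1 lies at chr17:56303177-56303351 on the plus strand and Mcm6 at chr1:128359691-128359865 on the minus strand.
Cdc6: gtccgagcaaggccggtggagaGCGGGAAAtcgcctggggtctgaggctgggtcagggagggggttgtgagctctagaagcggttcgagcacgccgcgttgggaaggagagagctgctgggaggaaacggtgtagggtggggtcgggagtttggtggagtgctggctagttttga
Mcm5: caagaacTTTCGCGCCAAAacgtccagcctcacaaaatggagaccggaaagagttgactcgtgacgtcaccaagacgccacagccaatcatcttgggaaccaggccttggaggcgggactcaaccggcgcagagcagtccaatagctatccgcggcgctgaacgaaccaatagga
Pclaf: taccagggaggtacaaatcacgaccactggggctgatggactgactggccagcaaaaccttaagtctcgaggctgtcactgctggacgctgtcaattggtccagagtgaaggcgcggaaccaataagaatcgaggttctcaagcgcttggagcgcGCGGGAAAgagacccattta
Uhrf1: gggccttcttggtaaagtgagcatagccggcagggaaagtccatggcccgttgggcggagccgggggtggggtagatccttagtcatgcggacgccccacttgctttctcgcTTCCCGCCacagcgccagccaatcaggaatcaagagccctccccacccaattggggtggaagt
Mcm6: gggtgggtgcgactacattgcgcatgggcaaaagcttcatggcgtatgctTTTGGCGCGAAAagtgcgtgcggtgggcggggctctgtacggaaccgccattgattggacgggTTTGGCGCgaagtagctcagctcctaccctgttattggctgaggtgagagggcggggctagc
Cdc6 and Pclaf hold the same letters, GCGGGAAA, which start at positions −138 and −5 relative to the transcription start. The overlapping matches of Mcm5, TTTCGCGCCAAA, are the reverse complement of the first capitals of Mcm6, TTTGGCGCGAAA. Cdt1, the only member lower in WT at 24 h than at 0 h, holds TTTGGCGC at position 33 after its start. Mcm10, Pold2 and Dut hold no match in the windows searched.

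Expression values below are log2 of background-corrected, quantile-normalised intensity. Levels of different probes are not compared, since brightness depends on the probe. Differences were tested with limma over all 9453 genes with 8 group means and 1 shared spread, two-sided, and a change was called at a Benjamini-Hochberg adjusted p under 0.05. In bulk RNA, fewer cells expressing a gene and less RNA per cell cannot be told apart.

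B cell identity and genotype were checked first. The B cell genes Cd79b, Ms4a1 and Cd22 were detected on all 40 arrays, while 5 of 6 T cell genes (Cd3d, Cd3e, Cd4, Cd8a, Cd5) were detected on 0 and Cd3g on 2. The B cell gene Pax5 was detected on 13 arrays, and the dendritic cell gene Siglech and the globin genes Hbb-bs and Hbb-bt on all 40. Of 7 myeloid and 4 platelet genes 3 each were tested, and 2 of each were lower in WT at 24 h than at 0 h and 0 higher (64.6% of all genes called). The myeloid gene Lyz2 averaged 8.37 at 0 h and 6.23 at 24 h, and the platelet gene Pf4 7.27 and 6.01. At 0 h 2 of the 3 myeloid genes were lower in Bank1-/- (1.51% of all genes called), a comparison that holds the library described in the next paragraph. The 4 B cell genes with a probe were all lower at 24 h than at 0 h in WT, by a median of −1.71, and their median difference from 0 h was 0.05 at 48 h. The part of the changes in these B cell, myeloid and platelet genes in the results was not tested. Bank1 itself was lower in Bank1-/- cells at every time, by −1.84, −1.05, −2.48 and −2.27 at 0, 6, 24 and 48 h, with adjusted p from limma of at most 0.00401 and no overlap between genotypes at any time. Without replicate 5 of Bank1-/- at 0 h, described next, the 0 h difference was −1.39 (adjusted p from limma 6.4e-08). The position of the probe relative to the deletion was not analysed here. Mean raw signal ran from 145.7 to 539.9 per array and averaged 253.8 in WT at 6 h against 419.8 in Bank1-/- at 6 h.

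One library stood apart before any test. The Bank1-/- 0 h library of replicate 5 had a mean over the 40 members of 10.17, against 8.06 to 8.12 in the other 4 libraries of its group and 10.04 to 10.21 in the Bank1-/- 24 h group. Over the members its root mean square distance was 0.1043 to the nearest Bank1-/- 24 h library and 2.396 to the nearest library of its own label, and over all tested genes 0.1633 and 1.001. Its Bank1 value, 7.71, also fell in the Bank1-/- 24 h range of 7.52 to 8.05 and outside the 9.68 to 10.22 of the other Bank1-/- 0 h libraries. Most values that rest on Bank1-/- at 0 h are therefore given with and without it, and some differences only without it. Since all groups share 1 spread, this library also widened the standard errors of the other comparisons.

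**Figure D1:**
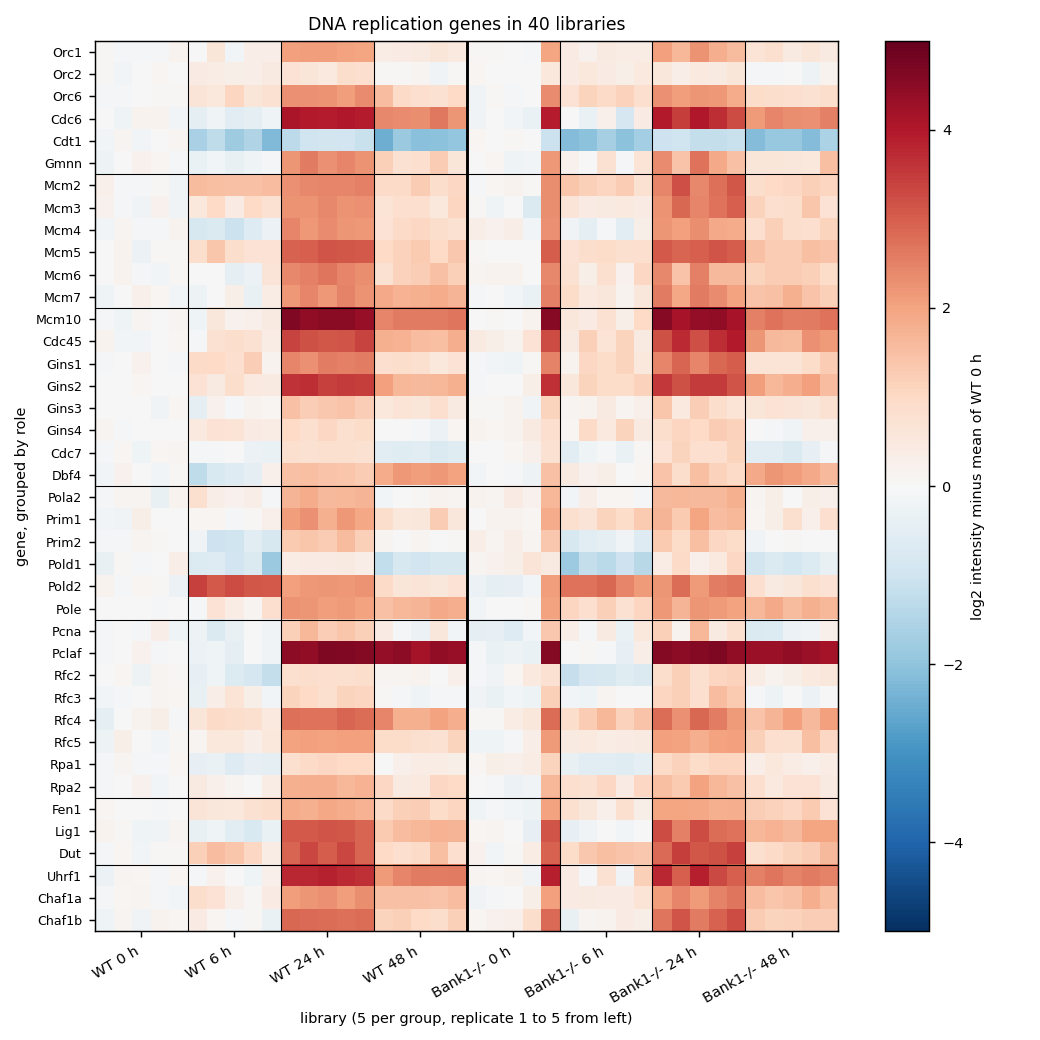
Each row is 1 of the 40 tested members, grouped by role, each column 1 library, and colour the log2 intensity minus the mean of WT at 0 h. Both 24 h blocks are red for nearly all genes, Cdt1 is blue after 0 h, and the fifth Bank1-/- 0 h column looks like the 24 h columns, with a mean of 10.17 over members.

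The first question was how the machinery changed with CpG in WT cells. At 0 h 33 of the 40 members were above background in all 5 WT libraries and 7 in 1 to 4 of them. By 24 h, 39 of the 40 members were higher than at 0 h and 1, Cdt1, was lower, against 34.6% of all tested genes higher and 30.1% lower. The median member difference was 2.18 on the log2 scale, with a range from −1.05 to 4.56. For the same 39 members all 5 libraries at 24 h lay above all 5 at 0 h, which held for 33.4% of all genes. The mean over members was 8.06 ± 0.03 (SD, n = 5) at 0 h, 8.25 ± 0.06 at 6 h, 10.18 ± 0.02 at 24 h and 9.00 ± 0.02 at 48 h.

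Little of this had happened by 6 h. Against 0 h, 11 members were higher and 7 lower, where 33% and 33.5% of all genes were called, and their median difference was 0.19. Without the library that stood apart, which acts through the shared spread, 18 were higher and 10 lower (34.3% and 35% of all genes). Array weights, which down-weight variable arrays, gave 17 and 9 (34.5% and 35.8%), and the WT groups at 0 and 6 h fitted alone 16 and 9 (31.7% and 32.9%). From 6 to 24 h 39 rose and 1 fell (31.3% and 26% of all genes), with a median of 1.73. From 24 to 48 h 36 fell and 1 rose (27% and 26.6% of all genes), with a median of −1.29. At 48 h 28 members were still above 0 h and 3 below it (29% and 26% of all genes), with a median of 0.92. Neighbouring comparisons share a group, so their values are set side by side only. The 6 h counts also depended on the scaling: scaling each array by its median gave 1 member higher and 10 lower and a member median of −0.30 (6.37% and 43.2% of all genes called), while the median of all genes moved to −0.39.

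**Figure D2:**
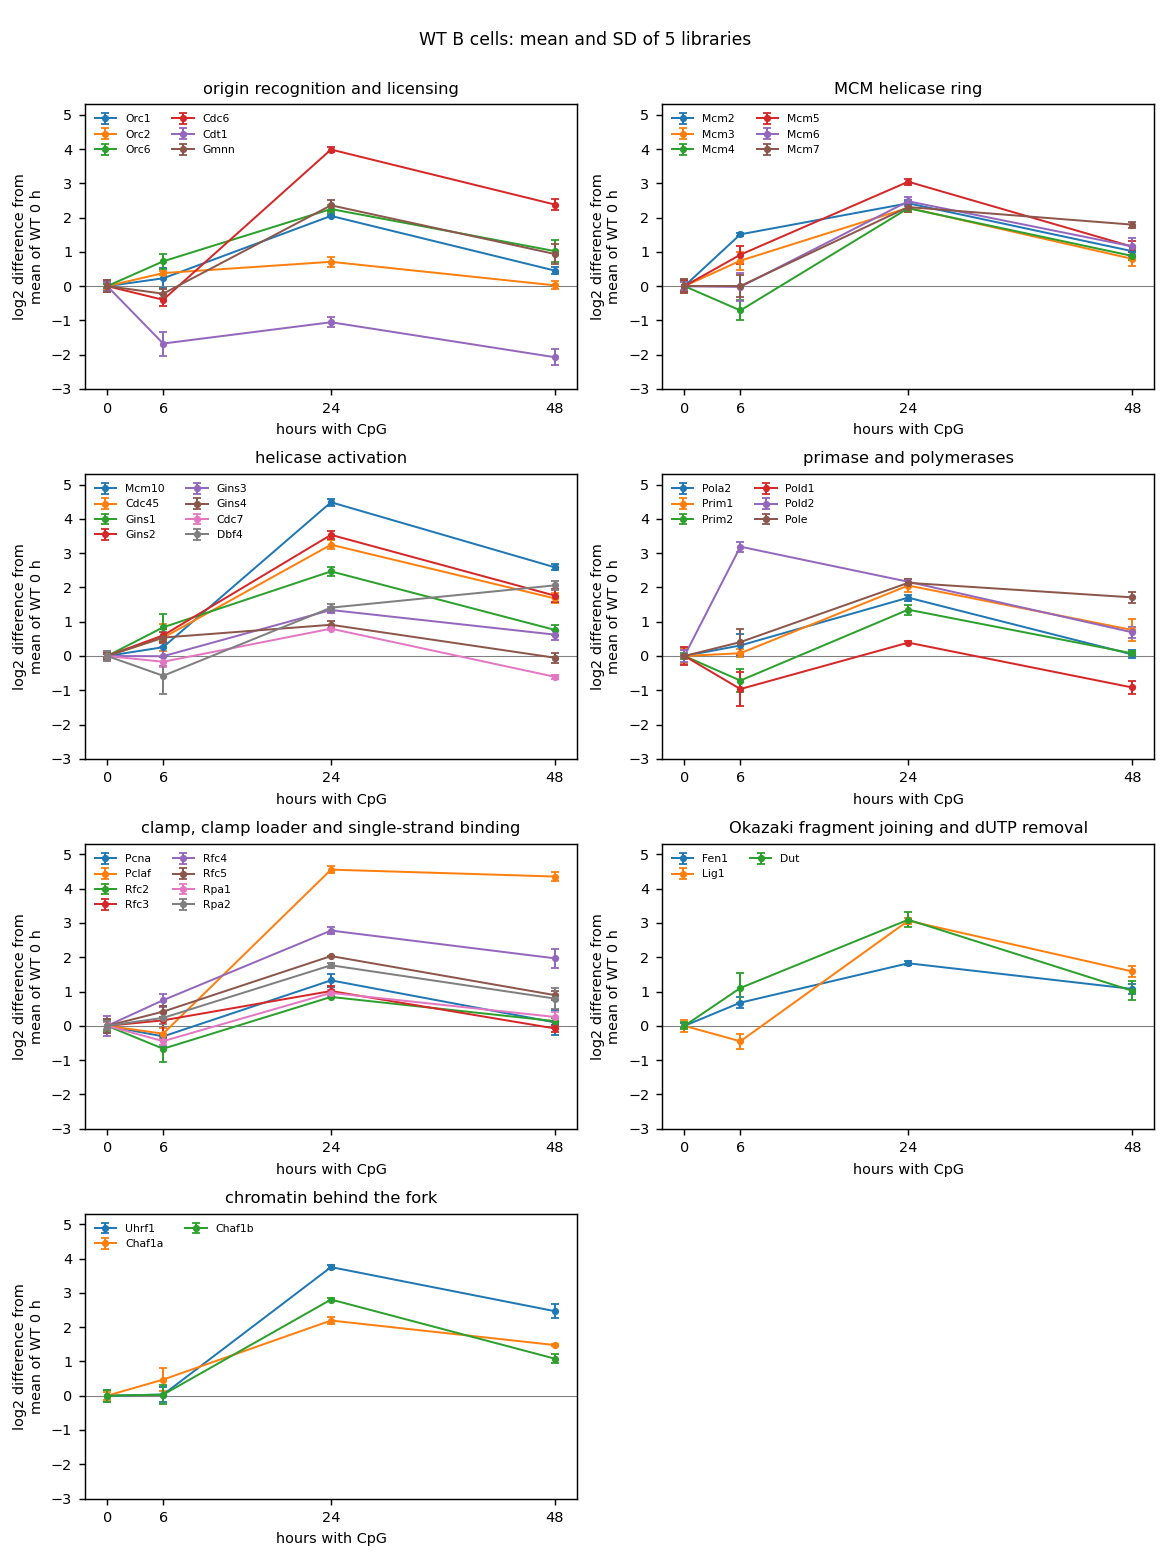
Lines give the log2 difference from the mean of WT at 0 h (vertical axis) against hours with CpG (horizontal axis) for the tested members of each role, as mean and SD of 5 WT libraries. Most lines peak at 24 h, Pold2 peaks at 6 h, Dbf4 is highest at 48 h and Cdt1 stays below 0 after the start.

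Licensing factors held 5 genes that rose by 24 h and 1 that fell. Cdc6, whose product helps load the MCM ring onto DNA, measured 6.85, 6.67, 7.04, 7.05 and 6.74 in WT at 0 h and 6.36, 6.67, 6.30, 6.38 and 6.64 at 6 h. It measured 10.95, 10.83, 10.81, 10.87 and 10.81 at 24 h and 9.28, 9.22, 9.18, 9.49 and 9.07 at 48 h. Every 24 h value lay above every other, the 48 h values lay between, and 4 of the 5 values at 6 h were not above background. The rise from 0 to 24 h was 3.98 ± 0.41 (SE), or 15.8-fold (adjusted p from limma 2.52e-10), and the SE was 0.15 without the library that stood apart. A second Cdc6 probe, detected on 12 arrays, gave 1.20. Of the ORC subunits Orc6 rose by 2.25 by 24 h. Orc1 and Orc2, called higher with differences of 2.05 and 0.71, were each above background in 1 of 5 WT libraries at 0 h, so neither size is well measured. Gmnn, which encodes geminin, was not above background in any of the 5 WT libraries at 6 h, and its 24 h level was higher by at least 3.71-fold (limma, adjusted p 8.19e-10).

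Cdt1 (chr8:122568015-122573130), whose product works with CDC6 in loading, ran the other way. It measured 11.61, 11.86, 11.61, 11.73 and 11.87 in WT at 0 h and 10.12, 10.46, 9.97, 10.25 and 9.53 at 6 h. It measured 10.45, 10.76, 10.82, 10.76 and 10.63 at 24 h and 9.29, 9.89, 9.65, 9.69 and 9.81 at 48 h. All values after 0 h lay below all values at 0 h, and the fall was −1.67 ± 0.17 by 6 h (adjusted p from limma 3.53e-11) and −2.07 ± 0.17 by 48 h (adjusted p 4.57e-13). Between 6 and 24 h it rose by 0.62 ± 0.17 (adjusted p 0.00167), in the step in which its partners rose, without regaining its starting level. The difference at 24 h from 0 h, −1.05, was not called when arrays were scaled by their medians.

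The MCM ring, the core of the replicative helicase, rose as a set. All 6 genes were called higher at 24 h than at 0 h, with differences between 2.27 (Mcm4) and 3.05 (Mcm5). Mcm5 measured 9.93, 10.07, 9.64, 9.98 and 9.95 in WT at 0 h and 10.80, 11.29, 10.80, 10.63 and 10.64 at 6 h. It measured 12.86, 12.89, 13.07, 13.01 and 12.98 at 24 h and 10.92, 11.05, 11.21, 10.91 and 11.26 at 48 h. The 0 h and 24 h values did not overlap with any other group, while 6 h and 48 h did overlap with each other. Mcm5 rose 8.26-fold from 0 to 24 h (3.05 ± 0.30, adjusted p from limma 1.09e-10).

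In the main fit the subunits did not start together. By 6 h Mcm2 had risen by 1.51 ± 0.24, Mcm5 by 0.92 and Mcm3 by 0.74, Mcm4 had fallen by 0.71, and Mcm6 and Mcm7 differed from 0 h by −0.02 and 0.00. They then reached differences from 0 h within a narrow range at 24 h. By 48 h Mcm7 differed from its 24 h level by −0.51, which was not called (adjusted p from limma 0.129), while the other 5 fell by between 1.31 and 1.89. The Mcm7 values did not overlap, at 10.40 to 10.71 at 24 h and 9.94 to 10.14 at 48 h. Without the library that stood apart 39 members were called for this step, all but Pclaf (58% of all genes). Array weights called all 40 (72.6% of all genes). With array brightness as a covariate the WT 6 h differences from 0 h of Mcm3 (0.67, adjusted p from limma 0.0525) and Mcm4 (−0.51, adjusted p 0.0717) were not called. The 6 h counts also depended on the scaling, as given above. The difference between subunits was not tested.

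Helicase activation held both steep and shallow risers. Mcm10 (chr2:4990724-5012791), which helps the loaded helicase start to unwind, measured 6.42, 6.27, 6.61, 6.49 and 6.63 in WT at 0 h and 6.27, 7.06, 6.71, 6.72 and 6.94 at 6 h. It measured 11.09, 10.93, 11.01, 10.99 and 10.83 at 24 h and 8.93, 9.10, 9.10, 9.06 and 9.17 at 48 h. Values at 0 and 6 h overlapped, with 1 and 3 of them not above background, and those at 24 h lay above all others, 22.4-fold above 0 h (4.48 ± 0.43, adjusted p from limma 9.72e-11). A second Mcm10 probe, detected on 21 arrays, gave 1.78. Of the GINS complex, which joins the helicase, Gins1 rose by 2.47, Gins3 by 1.34 and Gins4 by 0.91. Gins2, also of that complex, and Cdc45, the other helicase cofactor, were called higher with differences of 3.53 and 3.25. Each of these was above background in only 2 of 5 WT libraries at 0 h, so its size is set against a level mostly not above background.

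The kinase that fires origins has 2 subunits, and they parted after 24 h. The catalytic subunit Cdc7 rose by 0.80 by 24 h and was below its 0 h level at 48 h, by −0.61 ± 0.12 (adjusted p from limma 8.51e-05). Its activator Dbf4 measured 8.18, 8.52, 8.30, 8.20 and 8.40 in WT at 0 h and 7.07, 7.57, 7.68, 7.85 and 8.56 at 6 h. It measured 9.80, 9.83, 9.74, 9.71 and 9.58 at 24 h and 10.19, 10.49, 10.41, 10.49 and 10.33 at 48 h. Dbf4 was the only member called higher at 48 h than at 24 h, by 0.65 ± 0.21 (adjusted p 0.00957), with no overlap between the groups. This late rise was not called under median scaling, where 0 members were called higher.

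Among primase and polymerase genes, Pold2 (chr11:5872180-5878256), an accessory subunit of the lagging-strand polymerase delta, was early. It measured 7.73, 7.50, 7.63, 7.60 and 7.27 in WT at 0 h and 10.95, 10.62, 10.81, 10.66 and 10.62 at 6 h. It measured 9.58, 9.70, 9.76, 9.71 and 9.80 at 24 h and 8.50, 8.14, 8.19, 8.10 and 8.26 at 48 h. None of the 4 groups overlapped another. The 6 h rise was 9.12-fold (3.19 ± 0.25, adjusted p from limma 1.41e-13), the largest 6 h difference of any member, and Pold2 was the only member that fell from 6 to 24 h.

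Its partner Pold1, the catalytic subunit of polymerase delta, moved in the opposite direction at 6 h. Pold1 fell by 0.96 ± 0.17 by 6 h (adjusted p from limma 8.65e-06), was 0.39 above 0 h at 24 h, just past the threshold (adjusted p 0.0496), and was below 0 h again at 48 h by −0.92. The primase genes, which make the RNA primers, rose by 2.06 (Prim1) and 1.35 (Prim2) by 24 h. Pola2, the regulatory subunit of polymerase alpha, rose by 1.70, and Pole, the catalytic subunit of polymerase epsilon, by 2.13. In the main fit the difference of Pole at 48 h from 24 h, −0.42, was not called (adjusted p from limma 0.112). Its values did not overlap, at 8.86 to 9.10 at 24 h and 8.34 to 8.75 at 48 h. Pole was among the 39 members called for this step without the library that stood apart (58% of all genes). Array weights called all 40 (72.6% of all genes).

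The clamp and its partners rose by between 0.84 and 4.56 by 24 h. Pclaf, whose product binds PCNA, measured 6.67, 6.74, 6.97, 6.68 and 6.78 in WT at 0 h and 6.46, 6.56, 6.33, 6.74 and 6.60 at 6 h. It measured 11.22, 11.19, 11.45, 11.40 and 11.35 at 24 h and 11.15, 11.25, 10.92, 11.19 and 11.11 at 48 h. Only 1 of the 5 values at 6 h was above background. The 24 h and 48 h values overlapped each other and lay far above both earlier times, so Pclaf, 23.5-fold above 0 h at 24 h (4.56 ± 0.46, adjusted p from limma 2.13e-10), was still 20.5-fold above it at 48 h. Pcna itself rose by 1.33 ± 0.27 by 24 h and at 48 h differed from 0 h by 0.10, which was not called. The clamp loader genes rose by 0.84 (Rfc2), 1.02 (Rfc3, above background in 4 of 5 WT libraries at 0 h), 2.03 (Rfc5) and 2.78 (Rfc4). The single-strand binding genes rose by 0.96 (Rpa1) and 1.77 (Rpa2), although a lower probe of Rpa2 gave −0.42.

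Finishing enzymes and chromatin factors followed the main pattern. Dut (chr2:125247248-125259049), whose product removes dUTP so that uracil is not built into DNA, measured 6.55, 6.75, 6.53, 6.72 and 6.69 in WT at 0 h and 7.83, 8.19, 8.03, 7.68 and 7.03 at 6 h. It measured 9.54, 9.98, 9.67, 9.98 and 9.54 at 24 h and 7.65, 7.47, 7.60, 8.16 and 7.48 at 48 h. The 6 h and 48 h values overlapped, between a low start and a 24 h peak 8.55-fold above it (3.10 ± 0.31, adjusted p from limma 1.91e-10), while a second probe gave 1.28. Its fall of 2.07 from 24 to 48 h was the steepest of the members. The ligase gene Lig1, which seals Okazaki fragments, rose by 3.07 by 24 h and the flap nuclease gene Fen1 by 1.83.

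Uhrf1, whose product brings the maintenance DNA methyltransferase to newly copied DNA, measured 8.94, 9.37, 9.34, 9.17 and 9.32 in WT at 0 h and 9.18, 9.45, 9.19, 9.00 and 9.49 at 6 h. It measured 12.99, 12.98, 13.07, 12.97 and 12.89 at 24 h and 11.36, 11.67, 11.84, 11.79 and 11.81 at 48 h. The ranges at 0 and 6 h overlapped, and the rise to 24 h was 13.5-fold (3.75 ± 0.40, adjusted p from limma 4.08e-10). A second Uhrf1 probe, detected on 9 arrays, gave 0.84. The histone chaperone genes Chaf1a and Chaf1b rose by 2.19 and 2.81.

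**Figure D3:**
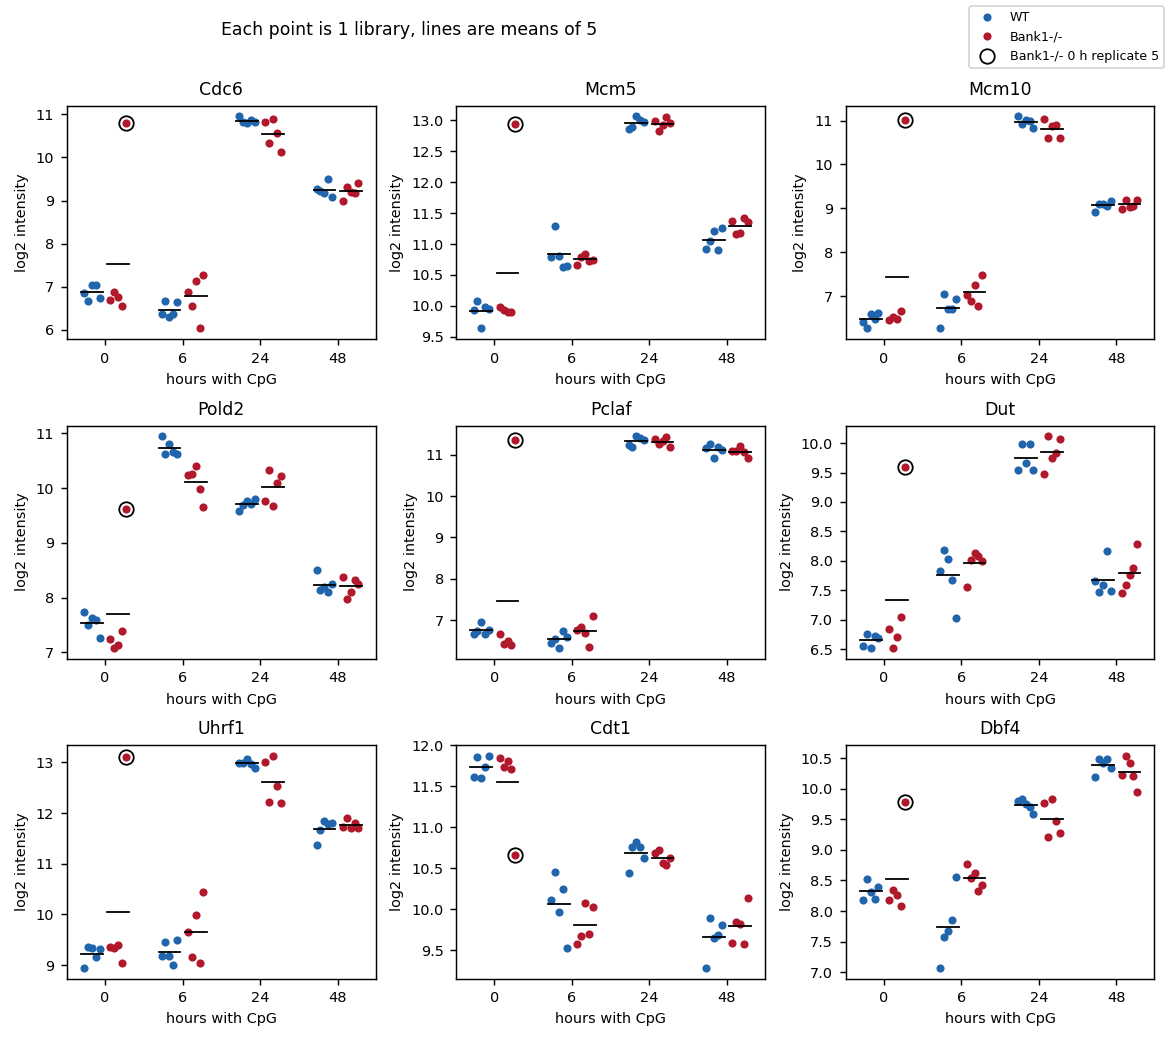
Each point is the log2 intensity (vertical axis) of 1 library in WT (blue) and Bank1-/- (red) by hours with CpG (horizontal axis), with a bar at each group mean of 5, for 9 members. The circled Bank1-/- 0 h library of replicate 5 lies at 24 h levels in each panel, for example 10.80 for Cdc6.

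A list of 36 further replication genes, not members, was read from the same fit. Of the 32 tested, 25 (78.1%) were higher and 1 (3.12%) lower in WT at 24 h than at 0 h, with a median of 1.12. Of all tested genes 64.6% were called there in either direction, with the shares by direction given above. The 3 with the smallest p among those rising were Atad5 (2.24), which helps unload the clamp, Tipin (2.94), part of the fork protection complex, and Pold3 (1.18), a subunit of polymerase delta. The gene that fell was Pold4 (−0.47, adjusted p from limma 0.00581), the small subunit of the same polymerase. From 24 to 48 h 17 of the 32 (53.1%) were lower and 1 (3.12%) higher, where 53.6% of all genes were called in either direction.

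In Bank1-/- cells the time course had the same shape. The highest of the 4 group means fell at 24 h for 37 of 40 members in both genotypes, against 21.45% of all tested genes in WT and 19.45% in Bank1-/-. Without replicate 5 of Bank1-/- at 0 h the Bank1-/- count was again 37 (19.41% of all genes), with the same exceptions. In both genotypes the 3 exceptions were Pold2 at 6 h, Dbf4 at 48 h and Cdt1 at 0 h. From 6 to 24 h 38 members rose and 0 fell (23.9% and 27.9% of all genes), with a median of 1.62, and Orc2 and Pold2 were not called. From 24 to 48 h 35 fell and 1 rose (25.6% and 28.3% of all genes), with a median of −1.17. Neither step uses the 0 h group except through the shared spread. Under median scaling the same 2 steps had 26 and 17 members called in these directions. There 35.7% and 33.6% of all genes were called in both directions together, while the median of all genes moved by −0.22 and 0.22.

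The comparisons with Bank1-/- at 0 h turned on 1 library. With all libraries 38 members were higher and 1 lower at 24 h than at 0 h (29.2% and 30.6% of all genes), with a median of 1.62, but the 5 libraries of each group were fully apart in that direction for only 5 members (5.71% of all genes). Without replicate 5 the counts were again 38 and 1, the median was 2.05, and 38 members were fully apart (26.2% of all genes). At 6 h against 0 h 5 were higher and 10 lower (31.2% and 29.5% of all genes), and 23 and 7 without it (34.1% and 31.5%). At 48 h against 0 h 17 were higher and 4 lower (25.4% and 25.6% of all genes), and 28 and 3 without it (29.8% and 29.5%).

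Cdc6 shows the effect of that library. It measured 6.70, 6.87, 6.75, 6.55 and 10.80 in Bank1-/- at 0 h and 10.83, 10.34, 10.88, 10.57 and 10.13 at 24 h. The last 0 h value lay inside the 24 h range and the other 4 lay far below it. The difference was 3.01 ± 0.41 (adjusted p from limma 1.4e-07) with it and 3.83 ± 0.16 without it, against 3.98 in WT. For Mcm5, at 9.99, 9.93, 9.91, 9.90 and 12.94 at 0 h and 12.99, 12.83, 12.92, 13.05 and 12.95 at 24 h, the difference was 2.41 with it and 3.02 without it.

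The same library stood out for the remaining leading members. Mcm10 measured 6.46, 6.53, 6.48, 6.67 and 11.02 at 0 h and 11.03, 10.59, 10.87, 10.90 and 10.61 at 24 h, a difference of 4.27 without replicate 5. Pclaf measured 6.66, 6.43, 6.50, 6.42 and 11.35 at 0 h and 11.37, 11.26, 11.34, 11.42 and 11.19 at 24 h, a difference of 4.82 without it. In both genes the first 4 values at 0 h lay between 6.42 and 6.67 and the last at the 24 h level.

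Uhrf1 measured 9.36, 9.33, 9.40, 9.05 and 13.10 at 0 h and 13.01, 12.21, 13.13, 12.54 and 12.20 at 24 h in Bank1-/- cells. Dut measured 6.85, 6.52, 6.70, 7.04 and 9.59 at 0 h and 9.47, 10.12, 9.74, 9.83 and 10.07 at 24 h. Without replicate 5 the differences were 3.33 for Uhrf1 and 3.07 for Dut, and neither pair of groups overlapped. Pold2 measured 7.25, 7.08, 7.14, 7.40 and 9.61 at 0 h, 10.25, 10.27, 10.40, 9.99 and 9.66 at 6 h and 9.76, 10.33, 9.67, 10.10 and 10.23 at 24 h. As in WT it had risen by 6 h (2.42 ± 0.25, adjusted p from limma 2.3e-10, and 2.90 ± 0.13 without replicate 5), but its 6 h and 24 h values overlapped.

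**Figure D4:**
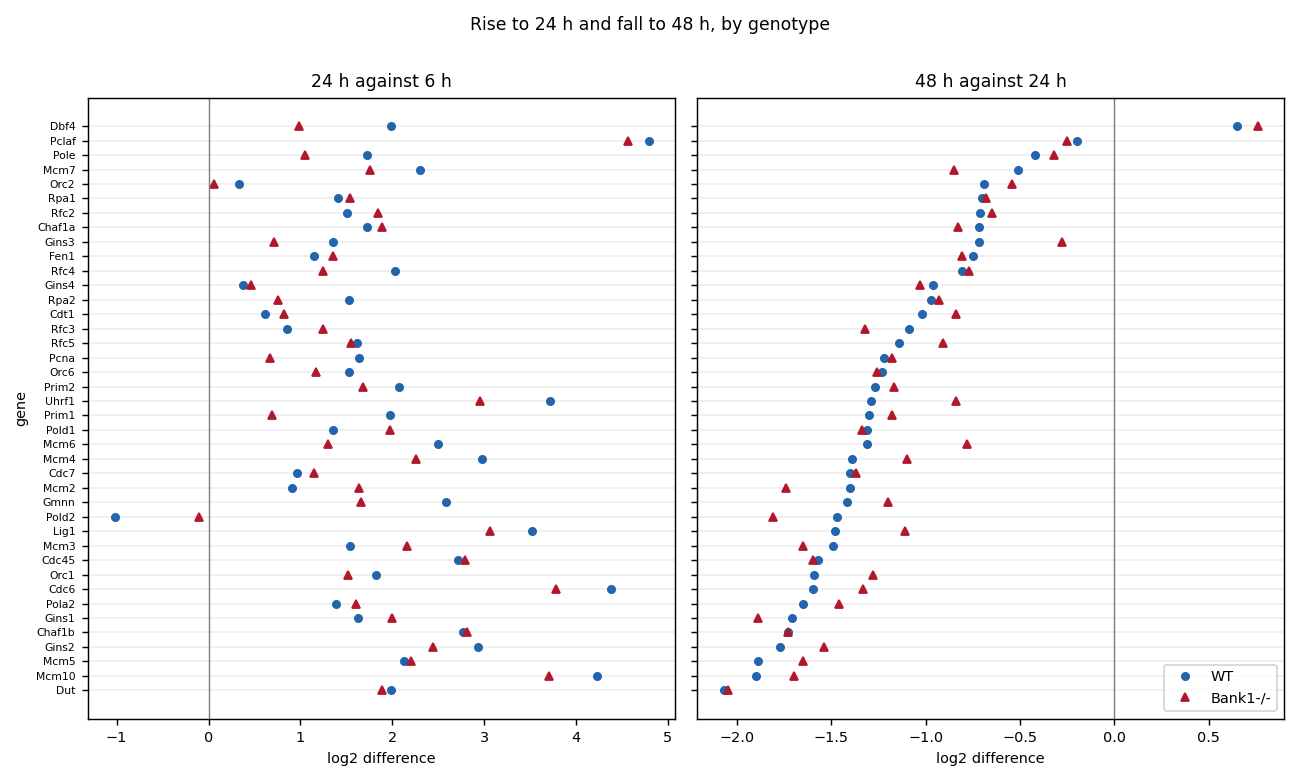
For each member the log2 difference from 6 to 24 h (left) and from 24 to 48 h (right) is shown for WT (circles) and Bank1-/- (triangles), each from means of 5 libraries. In the main fit the rise from 6 to 24 h is smaller in Bank1-/- for Prim1 and Dbf4, which was not called with array brightness as a covariate. In both genotypes Dbf4 is the member that rises after 24 h.

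The second question was whether loss of Bank1 changed the machinery. At 24 h, the peak, 0 of 40 members were called between genotypes (0.0423% of all genes higher and 0.0635% lower in Bank1-/-). In limma 2 members had an unadjusted p under 0.05 (11.5% of all genes), and array weights called 3 higher and 7 lower (7.91% and 10.6% of all genes). The median difference was −0.05, with a range from −0.55 (Mcm6) to 0.36. The 95% confidence interval lay within a 2-fold change in either direction for 35 of 40 members, the exceptions being Cdc6, Mcm6, Mcm10, Pcna and Uhrf1. At 48 h 0 members were called by limma (0.0952% of all genes higher and 0.0741% lower) and 0 had an unadjusted p under 0.05 (2.76% of all genes). The median was 0.05, and the interval lay within 2-fold for 40 of 40. Without the library that stood apart 40 of 40 intervals lay within 2-fold at both times, with a median half-width of 0.26. In that fit 0 members were called at either time, and 10 at 24 h and 3 at 48 h had an unadjusted p under 0.05, against 17.1% and 4.86% of all genes.

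At 0 h 1 member was called, Rpa1, which encodes the large subunit of the single-strand binding protein (0.719% of all genes higher and 0.793% lower). It measured 11.19, 11.37, 11.19, 11.16 and 11.35 in WT and 11.35, 11.53, 11.50, 11.61 and 12.37 in Bank1-/-. The groups overlapped only between 11.35 and 11.37, and the highest Bank1-/- value was replicate 5. The difference was 0.42 ± 0.11 (adjusted p from limma 0.047) and 0.25 ± 0.08 (adjusted p 0.154) without that library. The median over members was 0.41 with it and 0.03 without it, when 0 members were called.

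**Figure D5:**
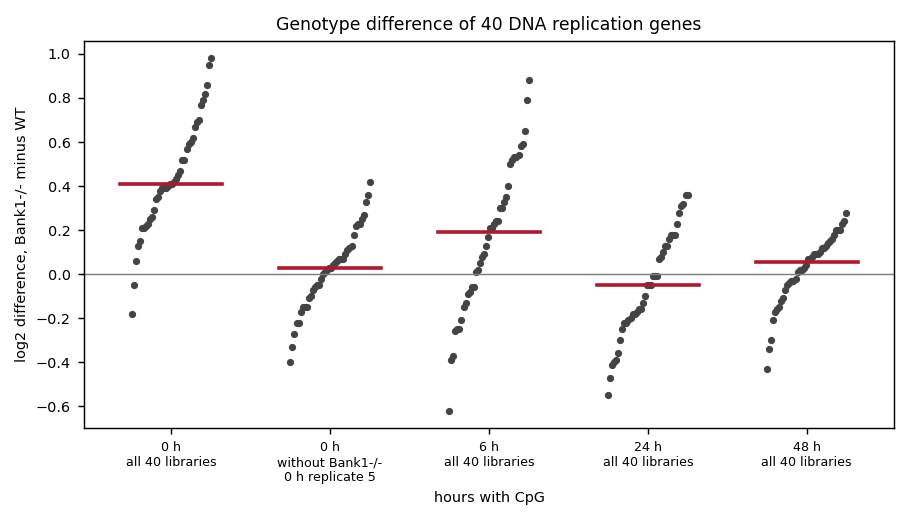
Each point is 1 of 40 members, with the log2 difference Bank1-/- minus WT on the vertical axis, by hours with CpG on the horizontal axis, and a red bar at the median. The median at 0 h is 0.41 with all libraries and 0.03 without Bank1-/- 0 h replicate 5, and the points centre near 0 at 24 and 48 h.

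At 6 h 3 members were called higher in Bank1-/- and 0 lower (14.5% and 7.57% of all genes), 7.5% of members against 22.1% of all genes in both directions together. Prim1, the catalytic primase subunit, measured 6.82, 6.80, 6.61, 6.75 and 6.94 in WT and 7.52, 7.34, 7.81, 7.61 and 8.02 in Bank1-/-. The genotypes did not overlap, but 3 of the WT values were not above background. The difference was 0.88 ± 0.22 (adjusted p from limma 0.00449). Dbf4 differed by 0.79 (adjusted p 0.00798), at 7.07 to 8.56 in WT and 8.33 to 8.76 in Bank1-/-, which overlapped. Rpa2, another single-strand binding subunit, differed by 0.59 (adjusted p 0.0423), and its 2 other probes gave −0.25 and 0.72.

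Array brightness and erythroid transcripts differed between the genotypes at 6 h as well. With brightness as a covariate 0 members were called at 6 h (2.09% of all genes), and Prim1 differed by 0.62 (adjusted p from limma 0.225). Scaling by medians called 20 members higher and 0 lower (51.2% and 0.138% of all genes), while the median of all genes moved by 0.60. Leaving out Bank1-/- 0 h replicate 5, through the shared spread, called 11 higher and 2 lower (19.6% and 10.9%), and array weights 13 and 3 (22.9% and 13.8%). Of 8 erythroid genes 5 were tested and 4 were higher in Bank1-/- at 6 h, with a mean over the list of 8.85 to 9.71 per library against 7.96 to 8.33 in WT. Their part in the result was not tested. Of the further replication genes 5 of 32 were higher in Bank1-/- at 6 h (Orc3, Orc4, Atad5, Nasp and Dnmt1). That is 15.6% of them, near the 14.5% of all genes, and 0 were called at 24 or 48 h.

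The size of each step was also compared between genotypes. From 6 to 24 h 4 members rose less in Bank1-/- and 0 rose more (14.9% and 7.8% of all genes). They were Prim1 (−1.29 ± 0.31, adjusted p from limma 0.00383), Dbf4 (−1.01 ± 0.30, 0.0154), Mcm6 (−1.20 ± 0.39, 0.0249) and Gins3 (−0.64 ± 0.23, 0.0385). With brightness as a covariate 0 of these were called (0.402% of all genes), and a second Dbf4 probe gave −0.36 (adjusted p 0.117). Without Bank1-/- 0 h replicate 5 the same step was lower in Bank1-/- for 16 members and higher for 4 (20.3% and 12% of all genes). Array weights gave 16 and 6 (26.8% and 18.2%), the 4 groups fitted alone 11 and 3 (15.1% and 8.1%), and median scaling 29 and 0 (58.4% and 0.106%). From 24 to 48 h 0 members differed in their step, 0 had an unadjusted p under 0.05 and 0.0317% and 0.0212% of all genes were called. From 0 to 6 h 1 member, Pola2, differed (−0.77, adjusted p 0.0441; 5.63% and 3.79% of all genes), a comparison that holds the library that stood apart. Without that library Pola2 differed by −0.48 ± 0.17 (adjusted p from limma 0.0487), and 7 members had a higher step in Bank1-/- and 1 a lower one (7.58% and 5.02% of all genes).

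For Prim1, higher in Bank1-/- at 6 h, the difference at 24 h was −0.41 and was not called (adjusted p from limma 0.465). It measured 8.79, 9.00, 8.48, 8.88 and 8.65 in WT at 24 h and 8.42, 8.01, 8.69, 8.26 and 8.36 in Bank1-/-, where 1 Bank1-/- library lay in the WT range and 4 below it. Dbf4 in Bank1-/- measured 8.76, 8.53, 8.62, 8.33 and 8.43 at 6 h and 9.76, 9.21, 9.83, 9.47 and 9.28 at 24 h. At 24 h it overlapped the WT range of 9.58 to 9.83.

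Mcm6 measured 10.38, 10.37, 9.91, 10.07 and 11.00 in WT at 6 h and 12.77, 12.89, 13.04, 12.82 and 12.68 at 24 h. In Bank1-/- it measured 11.13, 10.65, 11.18, 10.60 and 11.40 at 6 h and 12.78, 11.79, 12.89, 12.00 and 11.99 at 24 h. At 24 h 2 Bank1-/- libraries lay in the WT range and 3 below it. The 4 Mcm6 probes disagreed on the 6 h difference between genotypes, at 0.65, 0.84, −0.05 and −0.20.

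Gins3, a GINS subunit, measured 6.27, 6.95, 6.66, 6.89 and 6.85 in WT at 6 h and 8.19, 7.98, 8.06, 8.16 and 7.97 at 24 h. In Bank1-/- it ran from 6.86 to 7.17 at 6 h and measured 8.13, 7.23, 7.96, 7.62 and 7.43 at 24 h. Its values overlapped between genotypes at both times, and 2 of the WT values at 6 h were not above background. Leaving out single libraries from either genotype could end the call for Mcm6 and Gins3, with adjusted p up to 0.0619 and 0.102.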

How the data were processed

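RNA was amplified from 150 ng per sample with a biotin-labelling kit and hybridised to Illumina mouse arrays, per the labels' protocols. The authors deposited intensities on a linear scale for 45281 probes, not normalized per the file headers, and a log2 value table. That deposited log2 table equalled quantile normalization of the linear intensities followed by log2 (largest difference 4.99e-09, median 6.874), and served as an alternative. The scanner software and background step are not given in the sources used here. A further 8 columns matched no sample and were not used.

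Intensities were background-corrected with normexp (offset 50), quantile-normalized between arrays and taken to log2 in R 4.3.3 with limma 3.58.1. Of the probes, 34885 carry 1 gene symbol in the platform annotation (2016), 18 carry several and 10378 none. Detection required a signal above the 99th percentile of 1287 olfactory receptor gene probes of the same array, and a gene was tested if detected on at least 5 of 40 arrays, since no detection p-values were used. The fit had 8 group means and 32 residual degrees of freedom, with 17 comparisons read from it. Adjusted p-values are Benjamini-Hochberg over the 9453 genes within each comparison. The procedure was tested on simulated data. The number of arrays limits the precision, 0 pairs of arrays were identical, and whether replicates came from separate mice is not stated, so p-values measure the spread between these samples.

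The members, the lists and the tests were chosen with earlier results of these data known. Library values are given for the member of each role with the largest WT difference at 24 h from 0 h, for members called between genotypes at 24 or 48 h or in the later steps, and for the smallest p between genotypes at 0 and 6 h. Other members are named freely, and those library by library for Cdt1 were chosen after its values were seen. Replicate numbers are shared between groups, and the 140 correlations of same-numbered deviations ran from −0.487 to 0.45, with 0 of 28 pairs of groups all above 0.1, so the numbers were not taken to pair the samples. Alternatives were the deposited log2 table, median scaling, other detection filters, array weights, array brightness as a covariate, a replicate block, the groups compared alone, other probes and leaving out each library. Promoters came from RefSeq (GRCm38.p6), and figures were drawn with matplotlib 3.10.9.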

Additional observations from a re-analysis of the deposited data

Results flagged for a closer look

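In a group of 5 libraries a value is singled out when its gap to the nearest other exceeds 0.71 of the group's range, which chance gives for about 1 in 20 groups. Over the 40 members and 8 groups this held in 48 of 320 cases, 35 of them for Bank1-/- 0 h replicate 5.

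That library measured 10.80 for Cdc6 (the others 6.55 to 6.87), 12.94 for Mcm5 (9.90 to 9.99), 12.77 for Mcm6 (10.34 to 10.54) and 11.02 for Mcm10 (6.46 to 6.67). It measured 7.86 for Gins3 (6.57 to 6.90), 9.79 for Dbf4 (8.08 to 8.35), 8.57 for Prim1 (6.69 to 6.89) and 9.61 for Pold2 (7.08 to 7.40). It measured 11.35 for Pclaf (6.42 to 6.66), 12.37 for Rpa1 (11.35 to 11.61), 9.59 for Dut (6.52 to 7.04) and 13.10 for Uhrf1 (9.05 to 9.40). Its mean over the members was 10.17 against 8.06 to 8.12. In an estimate of array weights it received 0.0382.

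Smaller departures were seen in other libraries. Mcm5 was high in WT 6 h replicate 2 at 11.29 (10.63 to 10.80 in the others), and that library also had the highest member mean of its group, 8.36 against 8.21 to 8.23. WT 0 h replicate 1 had the lowest member mean of its group, 8.00 against 8.06 to 8.08. Rpa1 was low in WT 48 h replicate 1 at 11.26 (11.52 to 11.62). Dut was low in Bank1-/- 6 h replicate 1 at 7.56 (8.00 to 8.14) and high in WT 48 h replicate 4 at 8.16 (7.47 to 7.65).

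The step from 6 to 24 h differed between genotypes in limma's test of the difference for Prim1 (−1.29), Dbf4 (−1.01), Mcm6 (−1.20) and Gins3 (−0.64). With brightness as a covariate 0 members were called for this step.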

How the results depend on the processing

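Counts of members called are given for both directions together, with the share of all tested genes called in the same run where available. In the comparisons by which the genes reported library by library were chosen, no direction turned in any alternative run. The 4 probes of Mcm6 differed in sign for the 6 h difference between genotypes, as given above. WT 24 h against 0 h and against 6 h, and Bank1-/- 24 h against 0 h and against 6 h, stayed within 1.5 times their counts in every alternative run, as did WT 48 h against 24 h and against 0 h. The cause of the shifts below was not tested.

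Median scaling changed the counts to 11 for WT 6 h against 0 h (main 18, with 49.6% of all genes called against 66.5%). In Bank1-/- they became 7 for 6 h against 0 h (main 15, all genes 40.3% against 60.7%). The Bank1-/- counts were 18 for 48 h against 24 h (main 36, all genes 33.6% against 54%) and 11 for 48 h against 0 h (main 21, 28.8% against 51%). Between genotypes it gave 0 at 0 h (main 1, all genes 0.0846% against 1.51%) and 20 at 6 h (main 3, 51.4% against 22.1%). For the steps it gave 0 from 0 to 6 h (main 1, 0.423% against 9.42%) and 29 from 6 to 24 h (main 4, 58.5% against 22.7%). Of the further replication genes it called 21 at 6 h (main 5). Against quantile normalization it moved the median of all genes by up to 0.60 (at 6 h between genotypes). Array weights gave 33 and 34 for Bank1-/- 6 h and 48 h against 0 h (73% and 72.1% of all genes). Between genotypes they gave 3, 16 and 10 at 0, 6 and 24 h (7.69%, 36.7% and 18.5% of all genes). For the steps 0 to 6 h and 6 to 24 h they gave 12 and 22 (29.9% and 45% of all genes), and 16 further genes at 6 h. Array brightness as a covariate gave 3 at 0 h (3.59% of all genes) and 0 for 6 h (2.09%). It also gave 0 for both of these steps (1.58% and 0.402% of all genes) and for the further genes. Fitting the groups compared alone gave 6 and 7 for Bank1-/- 6 h and 48 h against 0 h, 0 at 0 h, 0 and 14 for the steps and 0 further genes. No share of all genes stands beside these counts, so they are not read as a result about the members. Without a detection filter 0 members were called at 0 h (0.572% of all genes), 0 for the step 0 to 6 h (3.35%) and 2 further genes at 6 h (11.1%). The deposited log2 table gave 2 for that step (9.28% of all genes) and 3 further genes at 6 h (21.6%). With the replicate number as a block the step 0 to 6 h had 2 calls in place of 1 (8.7% of all genes). The block changed no other count by over 1.5 times. In 27 of the 140 cases a sample correlated best with its own number.

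The next settings were chosen after seeing the data. Brightness without Bank1-/- 0 h replicate 5 gave 31 and 33 for Bank1-/- 6 h and 48 h against 0 h (67.9% and 62.2% of all genes). Between genotypes this setting gave 1 at 6 h (5.12%), 0 and 1 for the steps (2.5% and 1.43%) and 0 further genes. Median scaling without that library gave 22 for Bank1-/- 48 h against 24 h (36.3% of all genes). Between genotypes it gave 0 at 0 h (0.18%), 28 at 6 h (54.9%), 0 and 37 for the steps (0.455% and 62.5%) and 22 further genes.

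Leaving out each library in turn, the counts ran from 17 to 28 for WT 6 h against 0 h, and in Bank1-/- from 12 to 30 for 6 h and 16 to 31 for 48 h against 0 h. Between genotypes they ran from 0 to 4 at 0 h, 2 to 13 at 6 h, 0 to 0 at 24 and 48 h, 0 to 8 for the step 0 to 6 h and 2 to 20 for the step 6 to 24 h. The high ends came from leaving out Bank1-/- 0 h replicate 5, except at 0 h, where that gave 0 and leaving out Bank1-/- 0 h replicate 2 gave 4. Counts from leaving out other libraries have no share of all genes beside them and are not read as a result about the members. The further genes called at 6 h reached 11 without replicate 5. In that fit 69.3% of all genes were called for WT 6 h against 0 h. In Bank1-/- 65.6% and 59.3% of all genes were called for 6 h and 48 h against 0 h. Between genotypes the shares were 1.21% at 0 h, 30.5% at 6 h, 12.6% for the step 0 to 6 h and 32.3% for the step 6 to 24 h.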
